A study of Mus musculus with 8 samples.

Results

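The 10 genes described here are p53 itself and growth-arrest and death genes around it: Trp53, Mdm2, Cdkn1a, Ccng1, Gadd45a, Gadd45b, Gadd45g, Bax, Bbc3 and Phlda3. They were chosen by name, with earlier results of these data known, so that counts among them are description only. On the array, 11 probes were named by a RefSeq transcript of these genes, and for each gene the probe with the highest mean signal among those well above local background on at least 4 of the 8 arrays was used. All 11 probes passed, so that the 10 genes stand among 15152 genes with such a probe. Cardiac RNA came from 8 male mice of the C57BL\6 background, 4 with myocardial infarction (MI) and 4 sham-operated. MI mice had a permanent ligation of the anterior interventricular artery, and sham-operated mice the same operation without the ligation. Ventricles were taken after 24 hours, and 1 single-colour mouse SurePrint G3 array was hybridised per mouse. The study also imaged all 8 mice by FDG-PET at 24 hours, after injections of Acipimox and of the FDG tracer. Any effect of this imaging on the genes was not tested. The age of the mice in weeks is not given in the sources used here. The labels name the ventricles, while the methods speak of the excised heart being homogenised. Neither separates the infarct, so that infarcted and remote muscle are mixed in the sample of each MI mouse. In such a mixture, fewer cells of a type and less RNA per cell cannot be told apart.

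p53, the product of Trp53, is a transcription factor that is held low in resting cells by Mdm2, a ubiquitin ligase that marks it for degradation, and it is mostly the amount of p53 protein, not of its RNA, that rises after DNA damage, oxidative stress or lack of oxygen. It then switches on genes that stop the cell cycle (Cdkn1a, encoding the cyclin-dependent kinase inhibitor p21), genes that release death signals from mitochondria (Bax, Bbc3) and genes that limit the response itself (Mdm2, Ccng1). Gadd45a, Gadd45b and Gadd45g encode small stress proteins that bind p21, proliferating cell nuclear antigen and the kinase MEKK4. Gadd45a is the classical p53 target of the family, while Gadd45b and Gadd45g also answer to cytokines and other stress signals. Adult cardiomyocytes rarely divide, and in the heart these genes have been studied mostly for cell death and stress.

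The promoters of the genes are shown first, since the genes differ in whether a whole p53 half-site lies in the stretch read around the start of transcription. A p53 half-site is the palindrome of 10 bases to which a p53 dimer binds, and a full site is a pair of them. Sequences are those of RefSeq on GRCm38.p6, from 250 bases before to 50 bases after a start, and were found for all 10 genes (13 starts). A half-site with every base allowed by the consensus was found in 8.36% of 32851 mouse promoters of this length. It was found in 6 of the 13 promoters read here, those of 6 of the 10 genes. The 10 bases follow with the 4 core bases in capitals, on the strand of the gene.
Cdkn1a, 73 bases before the upstream of its 2 starts: ggaCTAGctt
Cdkn1a, 51 bases before the same start: gaaCATGtct
Trp53, 75 bases before the start: ggaCTTGccc
Mdm2, 186 bases before the start: gaaCTTGcct
Ccng1, 185 bases before the start: gggCAAGcct
Gadd45a, 40 bases before the start: gggCTAGccc
Bax, 201 bases before the start: aggCAAGctt

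The window of the downstream start of Cdkn1a (chr17:29093519-29093818) held no match. No such match lay in these windows in Gadd45b, Gadd45g, Phlda3 or Bbc3, which says only that the letters are not there. The Phlda3 window ends in gaacatgt, the letters that open the Cdkn1a half-site gaaCATGtct. A half-site cut off by that edge would not be seen. A pair of adjoining half-sites, with at most 1 of the 20 bases outside the consensus, was found in 29 of the 32851 promoters (0.0883%), among them those of Cdkn1a, which encodes p21, and of Ccng1, which encodes cyclin G1. In Cdkn1a the pair is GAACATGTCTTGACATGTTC and in Ccng1 it is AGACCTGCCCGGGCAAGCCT. The GC content of the 13 promoters ran from 52.7% (Trp53) to 78.0% (one start of Bbc3), beside a median of 52.7% over all promoters. The letters TATAAA, searched on both strands as those below, lay 27 bases before the start of Gadd45g and 46 bases before that of Gadd45b, and on the other strand 248 bases before that of Trp53 (13.6% of all promoters). CCAAT was found in 7 of the 13 promoters, those of 7 of the genes (37.4% of all promoters). The AP-1 letters TGANTCA (7.81% of all promoters) and the CRE letters TGACGTCA (1.79%) were found in none of the 13. None of these letters was tested for binding.

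The promoters of 5 genes are printed whole: that of the upstream start of Cdkn1a for its pair of half-sites, that of Trp53 as the gene of p53 itself, those of Phlda3 and Gadd45g as the genes with the largest differences described below, and that of Gadd45a, which has a half-site, to set beside Gadd45g. Capitals mark the p53 half-sites and pairs and the TATAAA and CCAAT letters on either strand.
Cdkn1a, chr17:29090729-29091028, plus strand: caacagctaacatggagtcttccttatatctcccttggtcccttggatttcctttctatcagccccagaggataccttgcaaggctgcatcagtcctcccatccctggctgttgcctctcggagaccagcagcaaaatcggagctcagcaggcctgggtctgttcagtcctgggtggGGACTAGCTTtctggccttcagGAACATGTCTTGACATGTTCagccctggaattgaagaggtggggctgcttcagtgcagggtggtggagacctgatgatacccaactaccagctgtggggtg
Trp53, chr11:69580109-69580408, plus strand: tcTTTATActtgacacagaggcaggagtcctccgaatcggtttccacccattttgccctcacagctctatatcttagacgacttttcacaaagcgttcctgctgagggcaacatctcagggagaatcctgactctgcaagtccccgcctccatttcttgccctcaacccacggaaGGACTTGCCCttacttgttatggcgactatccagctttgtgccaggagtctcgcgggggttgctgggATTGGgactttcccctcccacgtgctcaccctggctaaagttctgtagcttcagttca
Phlda3, chr1:135765835-135766134, plus strand: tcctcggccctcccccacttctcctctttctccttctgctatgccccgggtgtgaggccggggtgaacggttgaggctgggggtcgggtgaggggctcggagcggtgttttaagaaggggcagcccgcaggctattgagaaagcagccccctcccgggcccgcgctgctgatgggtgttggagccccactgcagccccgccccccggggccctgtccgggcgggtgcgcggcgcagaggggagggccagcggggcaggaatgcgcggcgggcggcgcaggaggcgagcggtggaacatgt
Gadd45g, chr13:51846425-51846724, plus strand: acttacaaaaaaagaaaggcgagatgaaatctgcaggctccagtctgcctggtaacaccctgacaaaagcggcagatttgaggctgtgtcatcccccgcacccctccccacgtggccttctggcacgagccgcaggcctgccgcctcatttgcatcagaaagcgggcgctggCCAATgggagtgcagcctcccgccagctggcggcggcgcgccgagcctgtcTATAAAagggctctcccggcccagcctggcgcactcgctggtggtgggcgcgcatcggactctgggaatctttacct
Gadd45a, chr6:67037358-67037657, minus strand: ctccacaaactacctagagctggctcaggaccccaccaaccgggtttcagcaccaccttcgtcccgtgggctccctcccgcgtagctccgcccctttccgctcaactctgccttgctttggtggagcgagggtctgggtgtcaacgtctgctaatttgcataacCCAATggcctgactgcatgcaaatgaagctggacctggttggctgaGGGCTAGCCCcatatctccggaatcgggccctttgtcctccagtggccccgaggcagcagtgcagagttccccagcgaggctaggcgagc

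Signals were placed on a log2 scale with the scale and additive constant that the authors' spike-in normalization gave each array, and differences are MI minus sham with the standard error (SE) and the adjusted p of limma over 34038 retained probes. Per array, 58.6% to 66.4% of spots exceeded their background, and precision is limited by the number of arrays. The second mouse of each group stood low over all probes: the median of the retained probes was 7.42 in MI replicate 2, against 7.79 to 8.001 in the other MI mice, and 7.38 in sham replicate 2, against 7.57 to 7.81. Accordingly, sham replicate 2 was the lowest sham mouse for 8 of the 10 genes and MI replicate 2 the lowest MI mouse for 7. Values are therefore also given after each array was scaled to its 75th percentile, and with both of these mice left out, a choice made after seeing the data. The median difference over all retained probes was 0.12 on the spike-in scale and -0.02 after percentile scaling. Levels of different probes are not compared.

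Of the 10 genes, Phlda3, Gadd45g and Trp53 rose over 2-fold in MI mice with an adjusted p under 0.05, beside 4.06% of all genes called in that direction. At any fold, Cdkn1a and Bax rose as well, which makes 5 of 10, beside 7.74% of all genes. Mdm2, Gadd45b, Bbc3, Gadd45a and Ccng1 did not pass the test. The groups did not overlap, with MI higher, for 6 of the 10 (the 5 above and Gadd45b), beside 9.45% of all genes. No gene of the set was called lower (0.541% of all genes over 2-fold and 1.78% at any fold), and the median difference of the 10 was 0.67, beside 0.07 over all genes. Among all probes, 1046 (3.07%) were called over 2-fold higher and 138 (0.405%) lower, so that 88.3% of the calls were higher. After percentile scaling they were 1043 and 401 (72.2% higher), and after quantile normalization 975 and 438 (69.0% higher). After percentile scaling, 6 of the 10 genes were called at any fold (10.1% of all genes) and 2 over 2-fold (3.78%), since Mdm2 was added and Trp53 stood at 0.99. With the refitted spike-in constants described for Trp53, 3 were called at any fold (4.86% of all genes) and 2 over 2-fold (1.55%). Without both low mice, 4 were called at any fold (Phlda3, Gadd45g, Trp53 and Bax), beside 6.47% of all genes, and 3 over 2-fold, beside 3.92%: Phlda3 (1.97), Gadd45g (1.33) and Trp53 (1.15).

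**Figure D1:**
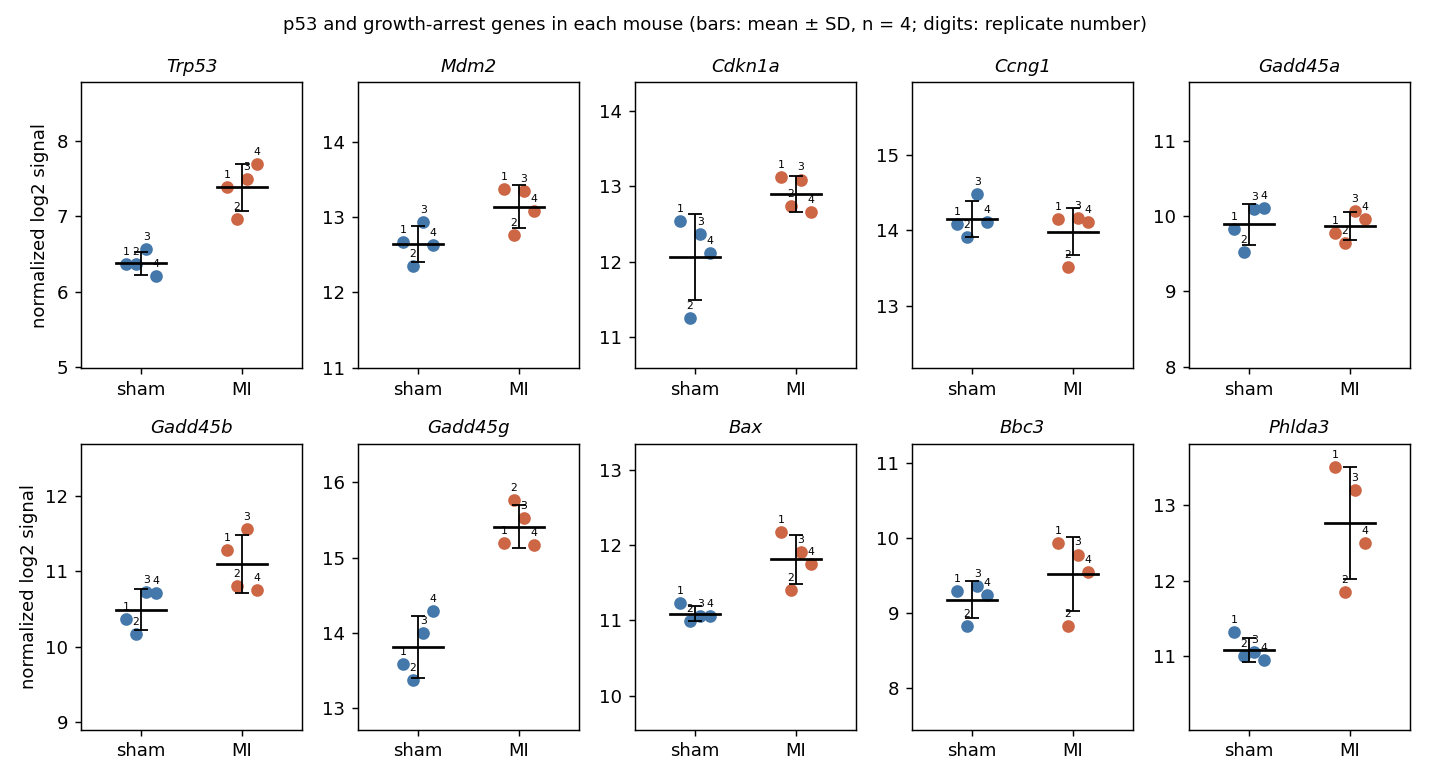
Normalized log2 signal of the 10 genes in each of the 4 sham and 4 MI mice; points are mice with their replicate number, and bars are the mean ± SD (n = 4). Every panel spans the same number of log2 units, so that the gap in Phlda3 (1.69) and Gadd45g (1.59) can be set beside the overlap in Gadd45a and Ccng1.

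Trp53 (chr11:69580348-69591873 on GRCm38.p6) was measured by a probe with 2 spots. Its log2 signal was 6.37, 6.36, 6.57 and 6.20 in the sham mice and 7.38, 6.96, 7.50 and 7.69 in the MI mice. All 4 MI mice lay above all 4 sham mice, and MI replicate 4 was the highest. The means were 6.38 ± 0.15 and 7.39 ± 0.31 (SD, n = 4), a difference of 1.01 (SE 0.21), or 2.01-fold (limma adjusted p = 0.00230; exact two-sided permutation p = 0.0286, the smallest that 4 against 4 mice allow). The probe was dim, with a mean processed signal of 67.5 in sham and 166 in MI mice, so that its fold depended on the additive constant: with spike-in constants refitted here, which were larger (166 to 257 against 3.16 to 19.6 signal units), the difference was 0.38 (adjusted p = 0.0510). Background correction by normexp followed by quantile normalization gave 0.57 (limma adjusted p = 0.00307). With the authors' constants the difference stood just at the 2-fold line. It was 0.97 without MI replicate 3, 0.91 without MI replicate 4 and 0.95 without sham replicate 4, with an adjusted p of at most 0.0127 without any one mouse.

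Mdm2 (chr10:117688875-117710758), whose product degrades p53 and whose transcription p53 in turn drives, read 12.67, 12.35, 12.93 and 12.62 in the sham mice and 13.37, 12.76, 13.34 and 13.09 in the MI mice. The 2 groups overlapped only through MI replicate 2, which lay below sham replicate 3. The difference of 0.50 (SE 0.21, 1.41-fold) did not pass the test (adjusted p = 0.180; exact permutation p = 0.0571). After percentile scaling the groups no longer overlapped, and a smaller difference of 0.37 (SE 0.10, 1.30-fold) passed it (adjusted p = 0.0307). Quantile normalization (0.44, adjusted p = 0.0104) and background correction by normexp followed by quantile normalization (0.42, adjusted p = 0.00247) gave the same call, while leaving out both low mice did not (0.53, adjusted p = 0.115).

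Ccng1 (chr11:40748552-40755309), encoding cyclin G1, which recruits a phosphatase to Mdm2, read 14.08, 13.92, 14.49 and 14.12 in the sham mice and 14.15, 13.51, 14.17 and 14.11 in the MI mice. The MI mice lay within the sham range apart from replicate 2, which was lower than every other mouse. The difference was -0.17 (SE 0.22, adjusted p = 0.734), and -0.29 after percentile scaling (SE 0.11, adjusted p = 0.0987). On the spike-in scale it lay between -0.25 and -0.01 when any one mouse was left out. It was -0.01 without MI replicate 2, -0.06 without sham replicate 3 and -0.25 without sham replicate 2. No rise was detectable with these arrays in this gene, whose promoter holds the other pair of half-sites printed above.

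Cdkn1a (chr17:29090979-29100722), the gene of p21, which blocks cyclin-dependent kinases and so halts the cell cycle, was measured by 10 spots of 1 probe. It read 12.53, 11.24, 12.37 and 12.11 in the sham mice and 13.12, 12.73, 13.09 and 12.65 in the MI mice. The groups did not overlap, but MI replicate 4 stood only slightly above sham replicate 1, and sham replicate 2 was far below the others. Cdkn1a rose by 0.84 (SE 0.25, 1.79-fold, adjusted p = 0.0342). Without sham replicate 2 the difference was 0.56 (adjusted p = 0.171), and the call was also lost without MI replicate 1 (0.76, adjusted p = 0.0994), MI replicate 2 (0.89, adjusted p = 0.0518), MI replicate 3 (0.77, adjusted p = 0.0687) or both low mice (0.62, adjusted p = 0.0999). After percentile scaling it was 0.71 (adjusted p = 0.0307). A second probe, named by another RefSeq transcript of the gene, was much dimmer (mean processed signal 24.2 in sham and 46.1 in MI mice, well above background on 7 arrays) and gave 0.72 (SE 0.27, adjusted p = 0.111).

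Phlda3 (chr1:135766085-135769134) encodes a small lipid-binding protein that competes with the survival kinase Akt for the plasma membrane, and is a direct target of p53. It read 11.31, 11.0005, 11.05 and 10.94 in the sham mice and 13.51, 11.84, 13.20 and 12.49 in the MI mice. Every MI mouse lay above every sham mouse, while the MI mice differed widely among themselves. The sham mean was 11.08 ± 0.16 and the MI mean 12.76 ± 0.75 (SD, n = 4). Phlda3 rose by 1.69 (SE 0.27, 3.22-fold, adjusted p = 9.41e-05), the largest difference of the 10 genes. The difference stayed between 1.44 and 1.99 when any one mouse was left out, with an adjusted p of at most 0.000582, and was 1.57 after percentile scaling (adjusted p = 0.00370). The spread of the MI mice was not removed by that scaling, with an SD of 0.50.

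Bax (chr7:45461695-45466903), which forms pores in the outer mitochondrial membrane, read 11.23, 10.99, 11.06 and 11.06 in the sham mice and 12.18, 11.40, 11.91 and 11.75 in the MI mice. The sham mice were close together and all MI mice were higher. Bax rose by 0.72 (SE 0.21, 1.65-fold, adjusted p = 0.0326). The call was lost without MI replicate 1 (0.60, adjusted p = 0.140), MI replicate 3 (0.69, adjusted p = 0.0904), MI replicate 4 (0.74, adjusted p = 0.0561), sham replicate 2 (0.69, adjusted p = 0.0719), sham replicate 3 (0.71, adjusted p = 0.0624) or sham replicate 4 (0.72, adjusted p = 0.0871). After percentile scaling the difference was 0.60 (adjusted p = 0.0177), and without both low mice 0.83 (adjusted p = 0.0227).

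Bbc3 (chr7:16308398-16318334) encodes Puma, which frees Bax by binding its inhibitors. It read 9.29, 8.83, 9.37 and 9.24 in the sham mice and 9.93, 8.83, 9.78 and 9.55 in the MI mice. In 3 MI mice it was above all sham mice, and in MI replicate 2 it was at the level of the lowest. The difference of 0.34 (SE 0.24, 1.27-fold) did not pass the test (adjusted p = 0.462), nor did that after percentile scaling (0.22, adjusted p = 0.30) or without both low mice (0.45, adjusted p = 0.159). It was 0.57 without MI replicate 2 (adjusted p = 0.0810), 0.20 without MI replicate 1 and 0.22 without sham replicate 2.

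**Figure D2:**
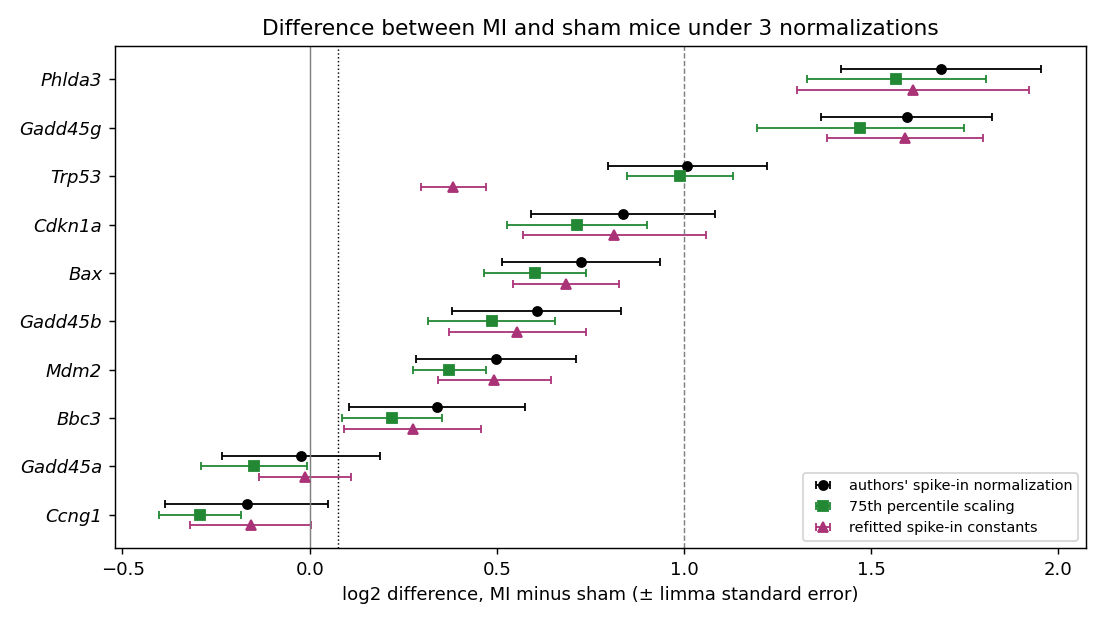
Log2 difference between MI and sham mice (points; bars are ± 1 limma SE, n = 4 and 4) for the 10 genes under the authors' spike-in normalization, scaling to the 75th percentile and refitted spike-in constants. The solid line marks 0, the dashed line 2-fold and the dotted line the median of all genes (0.07); Trp53 moved most, from 1.01 to 0.38 with the refitted constants.

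The Gadd45 genes did not move alike. Gadd45g (chr13:51846675-51848475) read 13.59, 13.38, 14.00 and 14.30 in the sham mice and 15.20, 15.76, 15.53 and 15.16 in the MI mice. The groups were well apart, and MI replicate 2, the low array, was the highest. Gadd45g rose by 1.59 (SE 0.23, 3.02-fold, adjusted p = 2.36e-05). It passed the test under all 23 alternatives, and the difference stayed between 1.45 and 1.75 without any one mouse.

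Gadd45b (chr10:80930091-80932204) read 10.37, 10.17, 10.73 and 10.71 in the sham mice and 11.28, 10.81, 11.56 and 10.75 in the MI mice. The lowest MI mouse (10.75) stood barely above the highest sham mouse (10.73). The difference of 0.61 (SE 0.23, 1.52-fold) did not pass the test (adjusted p = 0.108), and after percentile scaling it was 0.49 (adjusted p = 0.0801) with overlapping groups. Gadd45a (chr6:67035096-67037407) read 9.83, 9.52, 10.10 and 10.11 in the sham mice and 9.78, 9.65, 10.07 and 9.97 in the MI mice. The groups lay on top of each other, with a difference of -0.02 (SE 0.21, adjusted p = 0.968) and of -0.15 after percentile scaling (SE 0.14, adjusted p = 0.519).

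Whether the changes differed within the family was tested by taking the difference between 2 of the genes on each array, which cancels any shift of the whole array. The log2 signal of Gadd45g less that of Gadd45a lay between 3.76 and 4.19 in the sham mice and between 5.20 and 6.11 in the MI mice. The change in Gadd45g therefore exceeded that in Gadd45a by 1.62 (SE 0.22, 3.07-fold), and that in Gadd45b by 0.99 (SE 0.26). Gadd45b in turn exceeded Gadd45a by 0.63 (SE 0.17): their difference was 0.54 to 0.65 in the sham mice and 0.79 to 1.502 in the MI mice. In none of the 3 pairs did the groups overlap, and each exact two-sided permutation p was 0.0286, also when adjusted over the 3 pairs. Without any one sham mouse the p for Gadd45b against Gadd45a was 0.0571.

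**Figure D3:**
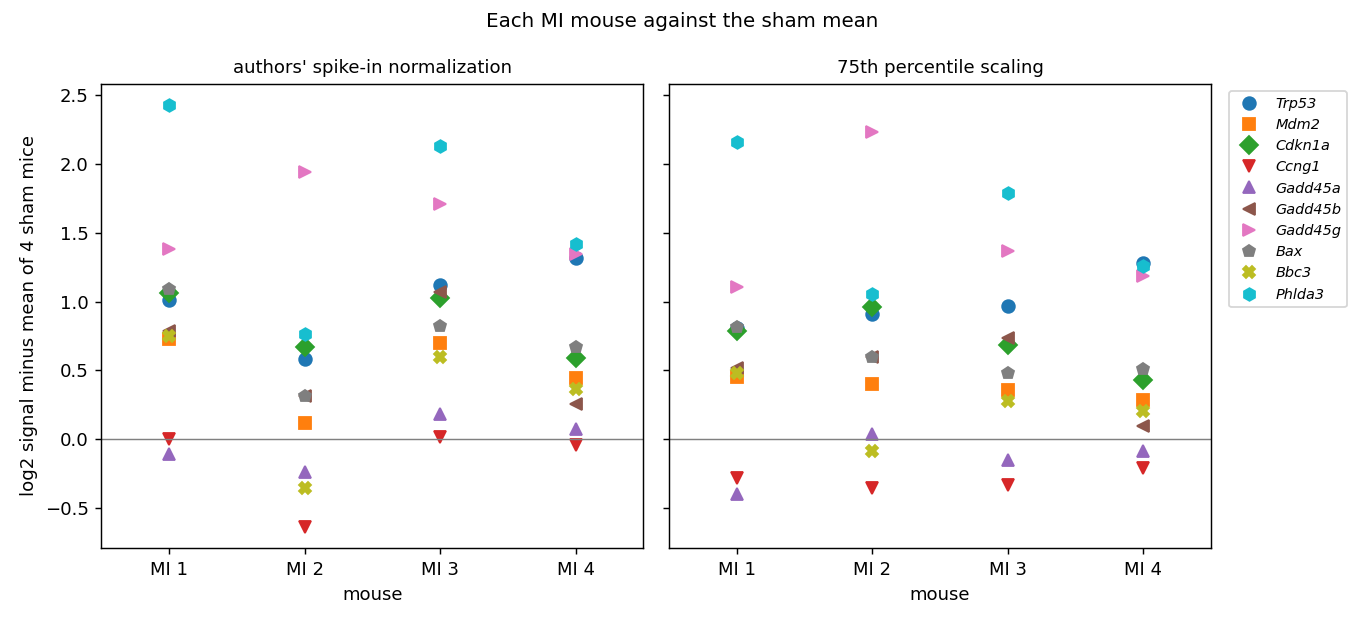
Log2 signal of each gene in each MI mouse minus the mean of the 4 sham mice, under the authors' spike-in normalization (left) and after scaling to the 75th percentile (right). MI replicate 2 is lowest for 7 of the 10 genes on the left and for 3 on the right; Gadd45g is highest in that mouse in both panels, while Phlda3 is lowest in it in both.

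Among the MI mice, genes of the set differed in which mouse was highest, as the plot of single MI mice shows. After percentile scaling, which removes the low level of replicate 2, Phlda3 was still lowest in that mouse and Gadd45g still highest. Trp53 was highest in replicate 4 on both scales. With 4 MI mice no relation between the genes was tested.

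For the 3 genes called over 2-fold, the genes whose centred values over the 8 arrays lay closest were looked up among 15081 genes, by the root mean square difference (RMS) in log2 units. Closest to Trp53 were Ms4a6d (RMS 0.08), Lhfpl2 (0.10) and Rab32 (0.11), with differences of 0.89, 0.90 and 1.14. Closest to Gadd45g were Amotl1 (0.23), Krtap16-3 (0.24) and Gm13889 (0.25), and closest to Phlda3 were Ckap2 (0.29), Icam1 (0.29) and Psg22 (0.30). Trp53 thus had nearer neighbours than the other 2 genes on this measure. Of the neighbours of Phlda3, Ckap2 and Psg22 were dim, with mean log2 signals of 4.53 and 4.52 in the sham mice. The RMS is not scaled to the size of a gene's difference, which was smaller in Trp53 (1.01) than in Gadd45g (1.59) and Phlda3 (1.69). These are descriptions of the same 8 arrays, in which any gene with a like difference between the groups lies close.

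The wider pathway was read from 6 lists of 74 genes in all, of which 69 had a retained probe. Over 2-fold, 3 of the 69 were called, all higher: Gdf15, Pmaip1 and Bcl2a1d, beside 4.06% of all genes. At any fold, 7 were called higher and 1 lower, beside the 7.74% and 1.78% of all genes given above. With both low mice left out, 5 of the 69 were called over 2-fold, beside 3.92% of all genes. The counts at any fold depended on the scaling, and those after percentile scaling, where 10.1% of all genes were called higher and 12.5% lower, are given with each list.

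The 13 regulators of p53 include kinases, ligases and a phosphatase that act on it, and its relatives Trp63 and Trp73. On the spike-in scale, none was called at any fold in the unblocked limma fit over all retained probes and mice. Their median difference was 0.13. Atm was called lower on this scale by significance analysis of microarrays, with a replicate block and among probes detected on all arrays. It was also called without sham replicate 2 or MI replicate 4. After percentile scaling 2 were called lower, Atm and Atr, and the median was -0.14. The 2 with the largest differences were Atm, the kinase that reports DNA breaks to p53 (-0.73, adjusted p = 0.0560), and Hipk2, which phosphorylates p53 (0.42, adjusted p = 0.289). Of 26 other p53 targets, 25 were retained, 3 were called higher and 22 did not pass, with a median of 0.19. Gdf15, a secreted stress cytokine, was the one past 2-fold: it lay between 8.77 and 9.89 in the sham mice and between 12.75 and 13.30 in the MI mice. It rose by 3.68 (SE 0.25, 12.8-fold, adjusted p = 7.34e-11). Sesn2 (0.90, adjusted p = 0.0258), which restrains growth signalling under stress, and Plk2 (0.84, adjusted p = 0.0256), a stress-induced kinase, rose too; these were named after their values were seen. Their groups overlapped. After percentile scaling 4 of the 25 were called higher and 5 lower, with a median of 0.07, and Plk2 was no longer called. With refitted constants or the spike-in shift only Gdf15 was called.

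Of the other inhibitors of cyclin-dependent kinases, 5 of 6 were retained (Cdkn2a was not). On the spike-in scale, none was called in the unblocked limma fit over all mice. Cdkn2c was called lower with a replicate block, and Cdkn2b higher without MI replicate 2. After percentile scaling 3 were called lower (Cdkn1b, Cdkn1c and Cdkn2c). The median on the spike-in scale was -0.30, and the largest differences were those of Cdkn2c (-0.60) and Cdkn2b (0.50). Of 12 retained partners of p21 and the Gadd45 proteins, 1 was called: Ccnd1, encoding cyclin D1, rose by 0.94 (SE 0.20, adjusted p = 0.00329), a gene named after its value was seen. Map3k4, which encodes MEKK4, the kinase that Gadd45 proteins bind, was at -0.56. After percentile scaling Ccnd1 was called higher, and Map3k4 and Mapk14 lower. Within the first array row alone, none of the 12 was called.

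Of 9 other death-promoting genes of the Bcl2 family, 2 were called higher and 1 lower, with a median of 0.06. Pmaip1, encoding Noxa, a p53 target that neutralises Mcl1, lay between 5.82 and 6.18 in the sham mice and between 7.01 and 7.69 in the MI mice. It rose by 1.503 (SE 0.21, 2.83-fold, adjusted p = 1.74e-05). The Pmaip1 probe was dim, with a mean processed signal of 48.9 in sham and 175 in MI mice. With refitted constants, or with normexp and quantile normalization, Pmaip1 was still called but no longer over 2-fold. Bid, which carries death-receptor signals to Bax, rose by 0.98 (adjusted p = 0.00287), and Hrk fell by 0.79 (adjusted p = 0.0188). Both were named after their values were seen. Within the first array row alone, neither Pmaip1 nor Bid was called. The Hrk probe was dim, with a mean processed signal of 48.2 in sham and 23.8 in MI mice. Its call was lost with refitted constants, no detection filter, the plain t statistic or either array row alone. It was also lost with both low mice left out, or without sham replicate 1 or 3. After percentile scaling 2 of the 9 genes were called higher and 2 lower, Hrk among them, with a median of -0.08. Of 5 retained survival genes of the family, 1 was called, Bcl2a1d, which rose by 2.08 (SE 0.23, 4.24-fold, adjusted p = 4.62e-07). Bcl2a1d has near-identical copies in the mouse genome, and its probe may not tell them apart.

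**Figure D4:**
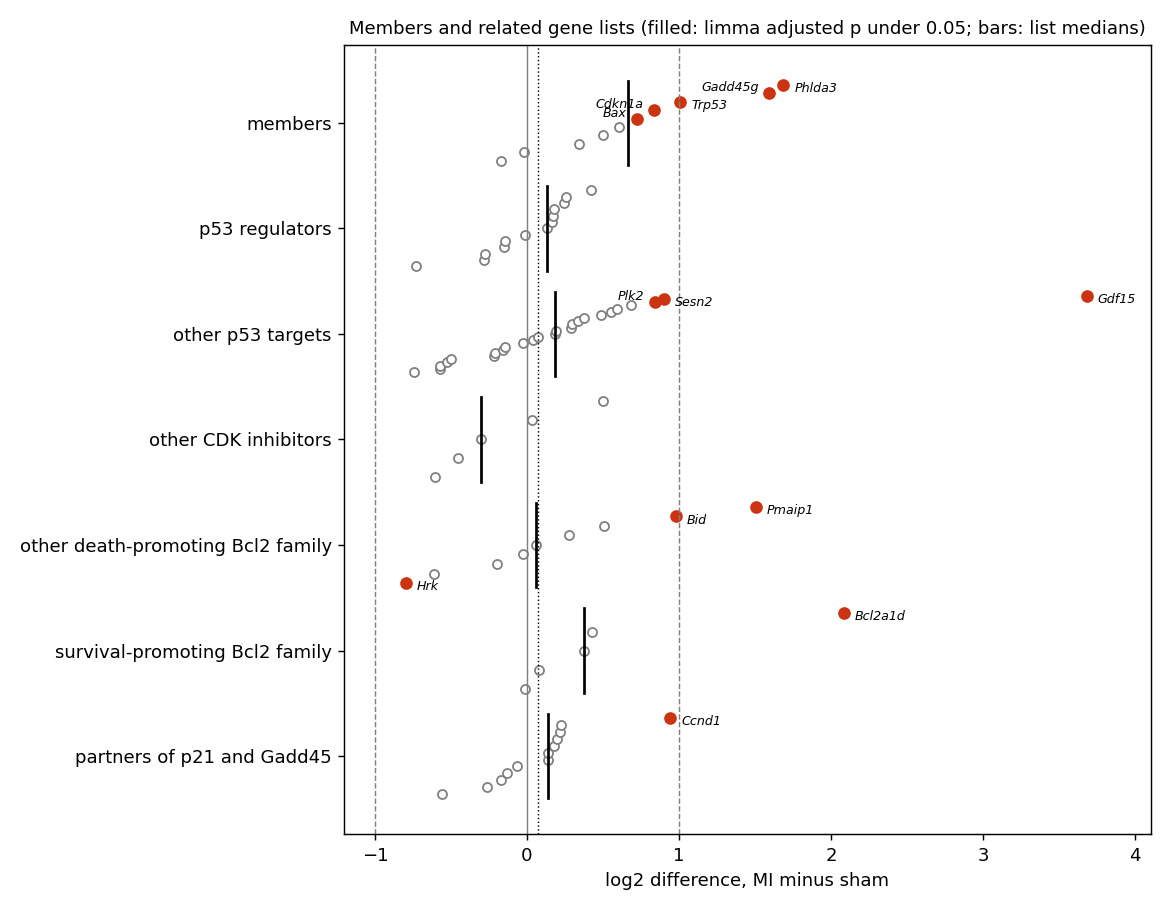
Log2 difference between MI and sham mice for every retained gene of the set and of the 6 related lists; filled points have a limma adjusted p under 0.05 and are named, open points do not. Short vertical bars are list medians, dashed lines mark 2-fold, the solid line 0 and the dotted line the median of all genes (0.07); Gdf15 lies far to the right at 3.68, and the regulators of p53 have no filled point on this spike-in scale.

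Markers of other cells differed between the same groups. Of 7 neutrophil markers detected in both groups, 6 were called over 2-fold higher in MI mice, with a median of 3.02. Ngp, named outside the rule for named genes, was well above background in no sham mouse and in all 4 MI mice. The summed signal of the 8 markers was 61645 to 80738 in the sham mice and 207490 to 319361 in the MI mice. Of its 2 brightest genes, S100a9 rose by 2.79 and Csf3r was at 0.08. Of 6 retained markers of monocytes and macrophages, 2 were called over 2-fold higher, and the summed signal was 29804 to 59334 in the sham and 36616 to 54992 in the MI mice. None of the 8 cardiomyocyte markers was called (median -0.08), and Actc1 and Myl2 read over 18 in every mouse. None of the 6 fibroblast markers was called (median -0.41). Of 5 retained markers of cycling cells none was called, with a median of 0.38, Cdc20 at 0.42 and Birc5 at 0.38. The part of these shifts in the differences of Trp53, Cdkn1a, Phlda3, Gadd45g and Bax was not tested.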

How the data were processed

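RNA of 8 ventricles was labeled in 1 colour and hybridised to 8 arrays of 1 slide, read in 1 scan. Arrays stood in 2 rows of the slide, each with 2 mice of either group. Per the file headers, the deposited signal intensities are the processed signals of Feature Extraction 11.0.1.1 (background-subtracted and detrended; design build mm9), and the spot and local background medians were used as deposited. The authors' deposited log2 values were normalized between arrays on spike-in probes with limma and vsn, and hold spots well above background. Comparing both recovered each array's scale and additive constant, with no misfit beyond rounding, and these were applied to all spots. Outlier spots were left out, spots of a probe averaged and probes well above background on under 4 arrays dropped. Groups were compared in limma 3.58.1 (R 4.3.3), with Benjamini-Hochberg adjustment and thresholds of 2-fold and 0.05. The difference in means of single values was tested by exact permutation of the mice, two-sided. Figures and tables were made in Python 3.11.15 with numpy 2.4.6, scipy 1.17.1, pandas 2.3.3 and matplotlib 3.10.9. The fit was tested on simulated data. Groups and replicate numbers came from the sample titles.

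Named were all 10 genes and, per related list, the genes called over 2-fold (at most 4) or otherwise the 2 with the largest difference. From marker lists at most the 2 brightest were named, and per gene called over 2-fold the 3 nearest patterns. The text says where a name falls outside this rule, apart from genes named for a call under another setting. The members and lists were chosen with earlier results of these data known. Symbols came from RefSeq accessions on GRCm38.p6, which left Bcl2a1a, Bcl2a1b, Cd68 and Ly6c2 without a matched probe. Alternatives were refitted spike-in constants, a spike-in shift, 75th percentile and quantile scaling, normexp (offset 50) on median signals followed by quantile normalization, the deposited values, other detection filters, significance analysis of microarrays (the methods' test), a plain t statistic, blocks, and mice left out. The vsn refit was an own implementation on 234 spots of 7 spike-in probes. The sequences of the array probes were not used here. The lists also held 6 markers of T cells (5 retained, 0 called over 2-fold, 2 at any fold), 5 of B cells (4 retained, 0 over 2-fold, 1 at any fold), 5 of endothelial cells (0 at any fold) and 4 of smooth muscle (1 over 2-fold, Acta2, 1.46).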

Additional observations from a re-analysis of the deposited data

Results flagged for a closer look

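In 20 groups of 4 mice (10 genes in 2 groups), the gap between the most distant mouse and its neighbour was divided by the range of the group, and a value above Dixon's critical value for 4 was taken as standing apart. 1 value did: Ccng1 in the MI mice, where replicate 2 read 13.51 and the other 3 read between 14.11 and 14.17, a ratio of 0.908. About 1 in 20 such groups passes this limit by chance. MI replicate 2 was also the array with the lowest median over all retained probes among the MI mice (7.42), and after scaling to the 75th percentile its value of Ccng1, relative to that percentile, was 5.12, beside 5.14 to 5.26 in the other MI mice.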

How the results depend on the processing

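Gadd45g was called under all 23 alternatives, Phlda3 under all except the plain t statistic (adjusted p = 0.101) and Trp53 under all except the refitted constants (0.38, adjusted p = 0.0510) and the first array row (0.81, adjusted p = 0.714). Cdkn1a lost its call in 13 of 24 tested settings (its second probe included) and Bax in 11 of 23, while Mdm2 gained one in 4 and Gadd45b in 1. Ccng1 and Bbc3 kept direction and were called in none. The sign of Gadd45a turned within row 1 (0.038) and without MI replicate 1 (0.0061) or 2 (0.051) or sham replicate 3 (0.046) or 4 (0.051), in a range of -0.14 to 0.051 without 1 mouse.

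Members called at any fold were 3 with refitted constants, the spike-in shift, no detection filter or row 2 alone, and 2 in row 1 alone or by the plain t statistic. Significance analysis of microarrays, the methods' test, gave 5 at any fold and 3 over 2-fold, with 1030 probes higher and 133 lower. Leaving out 1 mouse gave 3 to 5 at any fold, 2 to 3 over 2-fold, and 3 to 6 genes of the related lists over 2-fold (5 with the spike-in shift, 5 without both second mice). All probes higher over 2-fold were 320 with refitted constants, 439 with normexp and quantile, 456 in row 1 and 569 by the plain t statistic, and 925 to 1321 without 1 mouse. Those lower were 13 with refitted constants, 401 after percentile and 438 after quantile scaling, 52 without filter, 67 in row 1, 80 in row 2, 7 by the plain t statistic, 65 without both second mice and 58 to 249 without 1 mouse. Without 1 mouse the Gadd45 differences were 1.43 to 1.73 (g less a), 0.77 to 1.12 (g less b) and 0.54 to 0.78 (b less a); without both second mice they were 1.40, 0.74 and 0.67, each with exact permutation p = 0.1, the smallest for 3 against 3. The causes of these shifts between settings were not tested.

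Equal replicate numbers were not taken to pair the mice, since not every same-number pair correlated over 0.1: deviations from the group means correlated at 0.24, 0.29, 0.14 and 0.01. As a hint of pairing in the data, 3 of the 4 sham mice correlated best with their own number. With the replicate number as a block, 3 members were called over 2-fold and 7 at any fold (Mdm2, adjusted p = 0.0313, and Gadd45b, adjusted p = 0.0494, were added), and over all probes 1028 and 127 over 2-fold and 3945 and 950 at any fold, against 2144 and 446 without it.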
